A study of Mus musculus with 6 samples.

Results

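AMPA receptors are glutamate-gated cation channels that carry most fast excitatory transmission in the central nervous system. Each channel is a tetramer of subunits encoded by the Gria genes. Transmembrane AMPA receptor regulatory proteins (TARPs), encoded by Cacng genes, bind the channel and alter its delivery to the cell surface or how it opens and closes. Primary sensory neurons of the dorsal root ganglion release glutamate onto spinal neurons and also carry AMPA receptors themselves, on their cell bodies and on their central endings. The genes described here are 4 AMPA receptor subunit genes (Gria1, Gria2, Gria3 and Gria4) and 5 Cacng-named regulators of the receptor (Cacng2, Cacng3, Cacng4, Cacng5 and Cacng7), 9 of the 18193 genes with a probe set that carried 1 symbol. They were listed by gene family and name, and all of their 20 probe sets were read.

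Total RNA of 6 pools of neurons, taken from mouse dorsal root ganglia, was read on Affymetrix expression arrays. L6-R pools held 20 neurons that carried DiI, a membrane dye that travels from axon endings back to the cell body. L3-S pools also held 20 DiI-carrying neurons, and L3-B pools held 50 control neurons. Each of these 3 title codes had 1 array of big neurons and 1 of medium to small neurons, so no combination was replicated. The sources used here do not give the strain, the age, the meaning of the codes, the tissue that received the dye or whether pools came from different animals. Comparisons with L3-B therefore differ in code, in dye and in the number of neurons pooled, and these cannot be told apart.

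Signals are linear array units, and a signal under 32 lies near the background of such arrays. Between 55.3% and 59.6% of probe sets were under 32 on an array. All 8 neuron markers examined (Snap25, Rbfox3 and Isl1 among them) were above 32 on every array, with summed signals of 53311 and 48396 in L6-R (big, then medium to small), 38189 and 41886 in L3-S, and 38385 and 42115 in L3-B. The 4 skeletal muscle markers were under 32 on every array. The ratio of 3' to 5' Actb signal, which can grow as RNA becomes less complete, was 8.31 and 8.42 in L6-R, 5.42 and 12.0 in L3-S, and 13.9 and 3.73 in L3-B.

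Cacng5 and Cacng2 were much lower in L6-R neurons than in the other pools, while no tested AMPA receptor subunit gene passed the threshold in any comparison. Differences are those of log2(signal + 32), each with its standard error (SE) from a limma model that holds the title code and the size class and covers the 6 arrays, and a gene is called where its Benjamini-Hochberg adjusted p over 9097 tested genes is under 0.05. Folds on this scale understate changes that involve low signals. Of the 9 genes, 5 were bright enough on average to be tested (Gria2, Gria3, Gria4, Cacng2 and Cacng5), and 4 were not (Gria1, Cacng3, Cacng4 and Cacng7). In bulk pools, fewer cells that express a gene and less RNA in each cell cannot be told apart.

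**Figure D1:**
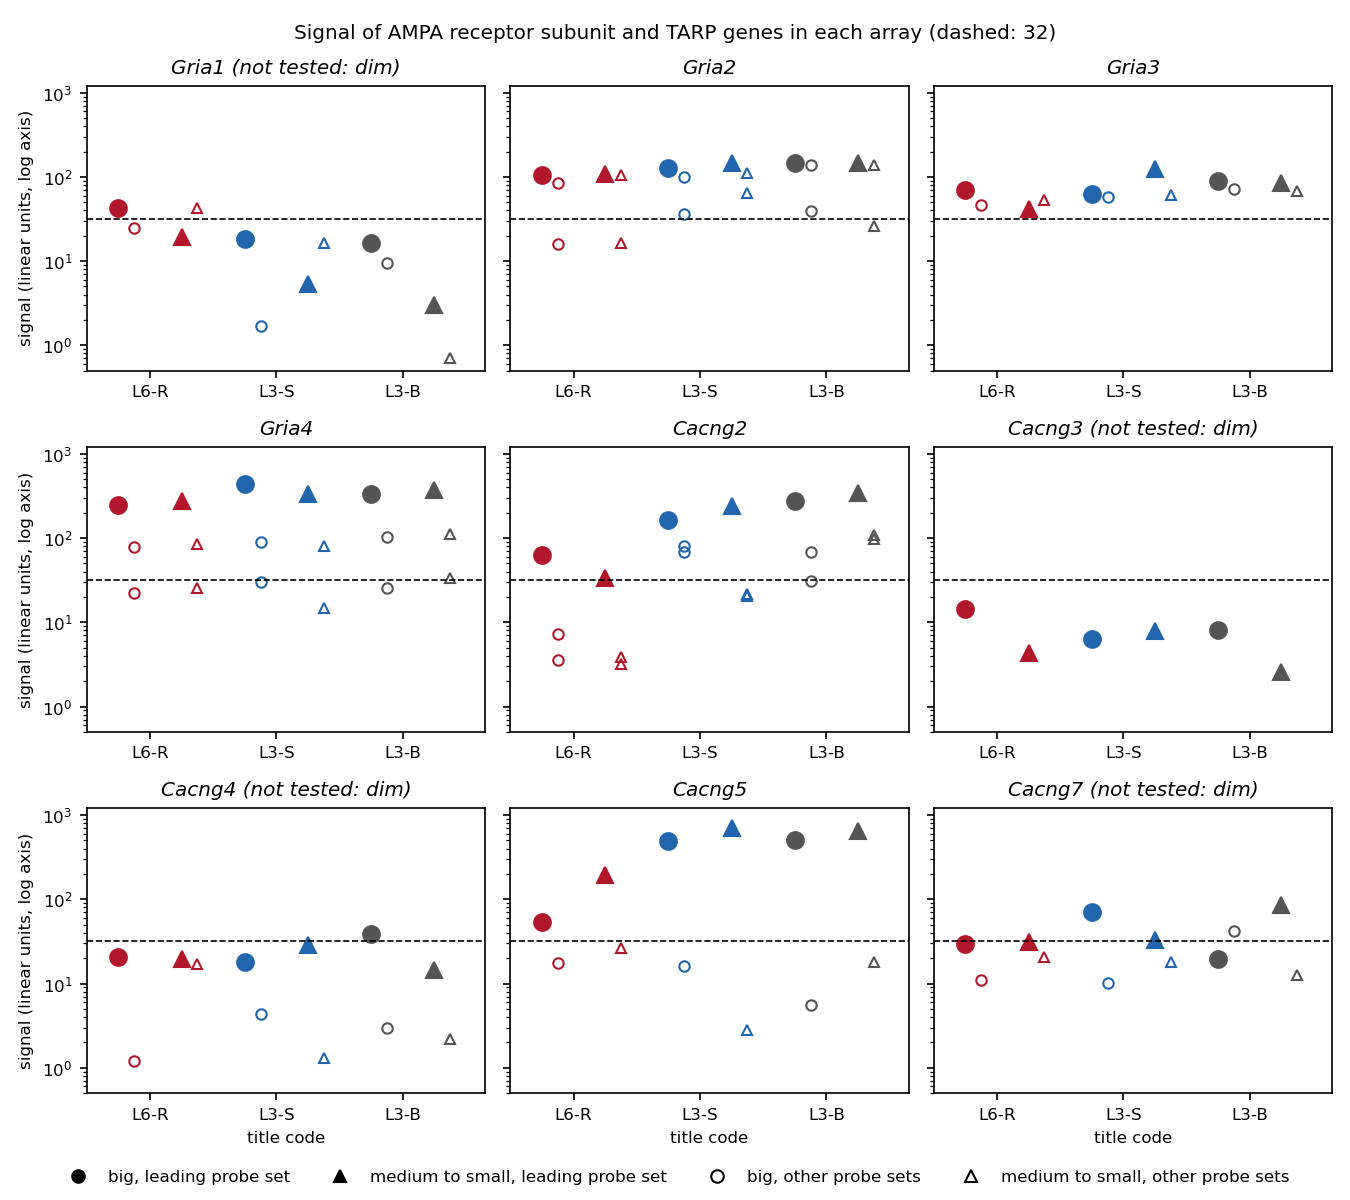
Signal of every probe set of the 9 genes (vertical log axis, linear array units) on each array, by title code (horizontal axis). Filled symbols are the leading probe set, open symbols the others, circles big and triangles medium to small pools, and the dashed line marks 32; Cacng5 and Cacng2 stand lower in L6-R than in L3-S and L3-B, and Gria1, Cacng3 and Cacng4 lie mostly under the line.

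Among the TARPs, Cacng5 (chromosome 11) encodes a type II member, a class that changes the gating of AMPA receptors. Its signal was 53.6 and 194 in L6-R, 499 and 705 in L3-S, and 502 and 654 in L3-B. Both L6-R values lay under all 4 others, and the L3-S and L3-B values overlapped.

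In L6-R neurons Cacng5 fell by 2.17 ± 0.29 log2 against L3-S (SE, 2 arrays of each code, adjusted p = 0.00749), or 4.49-fold (95% interval 2.83 to 7.14). Against L3-B it fell by 2.12 ± 0.29 log2 (adjusted p = 0.00382), or 4.35-fold (95% interval 2.74 to 6.91). These comparisons share the L6-R arrays, as those of L3-B share the L3-B arrays. Among big neurons alone the L6-R minus L3-S difference was -2.63, and among medium to small ones -1.70. Its other probe set lay under 32 on every array (2.8 to 26.4) and did not follow the leading one, with an L6-R minus L3-S difference of 0.39. Averaging both probe sets gave -0.89 (adjusted p = 0.12) against L3-S and -0.90 (adjusted p = 0.0747) against L3-B, and the call was lost in both. Testing each of the 34945 probe sets with 1 symbol separately also ended the call against L3-S (adjusted p = 0.0978).

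The stretch of DNA before the outermost annotated start of Cacng5 is shown because this gene had the largest fall among the tested members in L6-R against L3-S. It is the 250 bases at chr11:107915056-107915305 on the minus strand of GRCm38.p6, from RefSeq, read towards the gene, with matches to the motifs searched in capitals.

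Cacng5: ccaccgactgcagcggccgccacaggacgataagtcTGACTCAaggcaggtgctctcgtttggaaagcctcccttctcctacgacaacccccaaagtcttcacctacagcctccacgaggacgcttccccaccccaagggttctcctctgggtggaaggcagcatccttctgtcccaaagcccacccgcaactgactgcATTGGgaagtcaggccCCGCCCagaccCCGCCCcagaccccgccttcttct

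The motifs, searched on both strands, were the cyclic AMP response element TGACGTCA, the AP-1 element TGANTCA, the GC box GGGCGG, the CCAAT box CCAAT and the TATA box TATAAA. The outermost window held 1 AP-1 match beginning 214 bases before the start, 1 CCAAT match beginning 51 bases before it and 2 GC boxes beginning 35 and 24 bases before it, none of them overlapping. Among 32851 windows of the same length before annotated mouse starts, 6.75% held an AP-1 match, 33.8% a CCAAT box, 32.7% a GC box, 12.4% a TATA box and 1.55% a cyclic AMP response element. RefSeq gives a further Cacng5 start inside the gene, whose window at chr11:107911363-107911612 was 56.8% G and C and held none of the 5 motifs. The outermost window was 62.0% G and C, against a median of 52.4% over all windows. The start used for Cacng2 lies 940 bases inside the outer edge of the annotated gene, so its window lies within the gene. That window was also 62.0% G and C and held none of the 5 motifs. A match describes letters only, and 6 of the 9 genes had a window in this table.

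Cacng2 (chromosome 15) encodes stargazin, the first TARP described, which carries AMPA receptors to the surface and anchors them through scaffold proteins at the synapse. Its signal was 63.4 and 33.2 in L6-R, 166 and 238 in L3-S, and 277 and 344 in L3-B. With this leading probe set the groups did not overlap, and the order L6-R, L3-S, L3-B held in both size classes. Its other probe sets were dimmer and lay at 7.2 and 3.2, and at 3.6 and 3.9, in L6-R, under each of their L3-S values (80.7 and 21.5, and 69.3 and 20.8) and L3-B values (69.3 and 97.0, and 30.9 and 109). In the big pair both were higher in L3-S than in L3-B, and their medium to small L3-S signals were under 32.

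In L6-R neurons Cacng2 fell by 2.11 ± 0.28 log2 against L3-B (SE, 2 arrays of each code, adjusted p = 0.00351), or 4.32-fold (95% interval 2.76 to 6.77). Against L3-S it fell by 1.55 ± 0.28 log2 (adjusted p = 0.0256), or 2.93-fold (95% interval 1.87 to 4.59). That call did not survive leaving out the medium to small array of L3-S (-1.26, adjusted p = 0.0703) or of L6-R (-1.09, adjusted p = 0.28), and it was also lost with a pseudocount of 1 (-2.09, adjusted p = 0.0599) or with all genes tested (-1.55, adjusted p = 0.0861), with the mean of its probe sets (-1.22, adjusted p = 0.0922) and with every probe set tested (adjusted p = 0.165). L3-S neurons differed from L3-B neurons by -0.56 ± 0.28 log2 (95% interval -1.21 to 0.09, adjusted p = 0.588), which did not pass.

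The other TARP genes were dim. Cacng3, which encodes a close relative of stargazin, was under 32 on all arrays (2.6 to 14.4). Cacng4, another TARP of the same class, was above 32 on 1 array, L3-B big (38.3), and its other probe set ran from 1.2 to 17.2. Cacng7, which encodes the other type II TARP, read 29.4 and 31.0 in L6-R, 70.9 and 32.9 in L3-S, and 19.3 and 84.9 in L3-B. Its values in L3-B lay at both ends of this range, and its other probe set had its highest signal (42.5) on the L3-B big array, where the leading one had its lowest. No difference in these 3 genes can be resolved from signals so near the background.

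Among the subunit genes, Gria4 (chromosome 9) encodes a subunit with fast kinetics. Its leading signal was 246 and 279 in L6-R, 436 and 332 in L3-S, and 334 and 368 in L3-B. Both L6-R values were the lowest, but the intervals included 0. The L6-R minus L3-S difference was -0.49 ± 0.24 log2 (95% interval -1.03 to 0.06, adjusted p = 0.376) and the L6-R minus L3-B difference -0.38 ± 0.24 (95% interval -0.93 to 0.16, adjusted p = 0.413). The next probe set showed less, with -0.05 and -0.29 for these comparisons.

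Gria2 (chromosome 3) encodes the subunit that, after RNA editing of its transcript, makes the channel nearly impermeable to calcium. Its leading probe set, of a design that can match several transcripts of the gene, read 105 and 109 in L6-R, 129 and 146 in L3-S, and 144 and 147 in L3-B, a narrow range with L6-R lowest. It differed by -0.29 ± 0.22 log2 between L6-R and L3-S (95% interval -0.78 to 0.21, adjusted p = 0.583) and by -0.36 ± 0.22 between L6-R and L3-B (95% interval -0.85 to 0.14, adjusted p = 0.4), without passing. The other Gria2 probe sets were also lower in L6-R in these comparisons. The brighter of them, above 32 on every array, gave -0.12 and -0.44. The dimmer one gave -0.74 and -0.42, but its L6-R signals (16.1 and 16.6) lay near the background.

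Gria3 (chromosome X) gave leading signals of 69.9 and 41.7 in L6-R, 62.0 and 124 in L3-S, and 88.7 and 85.0 in L3-B. With this probe set the L3-S pools held both a value within the L6-R range and the highest value of all, so the groups overlapped. The other Gria3 probe set was dimmer, and its groups did not overlap. It read 46.5 and 53.4 in L6-R, 57.6 and 61.0 in L3-S, and 71.2 and 67.4 in L3-B. Its L6-R differences were -0.16 against L3-S and -0.31 against L3-B. For the leading probe set the differences were -0.48 ± 0.30 log2 for L6-R minus L3-S (adjusted p = 0.495) and -0.46 ± 0.30 for L6-R minus L3-B (adjusted p = 0.437). The first of these was 0.01 when the medium to small array of L3-S was left out. Gria1, whose product joins calcium-permeable receptors in many neurons, was above 32 on 1 array with each of its probe sets: 42.5 in L6-R big with the leading one, and 42.2 in L6-R medium to small with the other. Its other signals ran from 0.7 to 24.9, so its level in these neurons is at or near the background. Both probe sets had their highest values in L6-R (42.5 and 19.5, and 24.9 and 42.2), with at most 18.4 and 16.2 in the other codes. A difference cannot be resolved from signals so near the background.

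**Figure D2:**
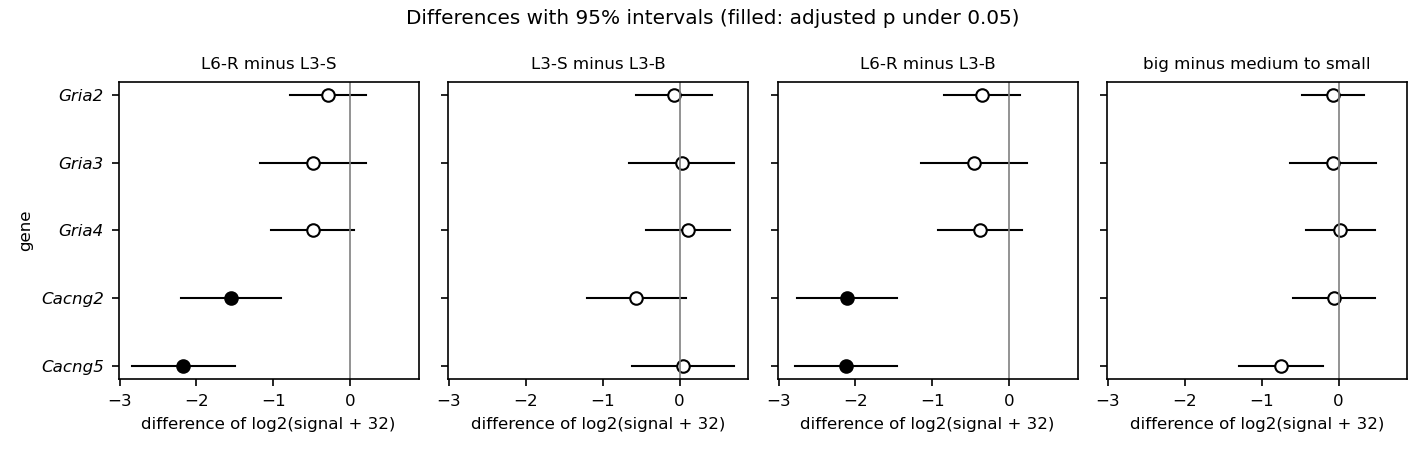
Difference of log2(signal + 32) (horizontal axis) for the 5 tested genes in each comparison, with 95% intervals from limma; filled points passed the adjusted p threshold. Cacng5 and Cacng2 lie near -2 in both comparisons of L6-R, apart from -1.55 for Cacng2 against L3-S, and the intervals of the Gria genes include 0 throughout.

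By comparison, 2 of the 5 tested genes were called in L6-R against L3-S, both lower, where 3.18% of all 9097 tested genes were called (115 higher and 174 lower). In L6-R against L3-B the same genes, Cacng2 and Cacng5, were called, both lower, where 7.51% of all tested genes were called (424 higher and 259 lower). The median over all tested genes was -0.01 and 0.02 log2 in these comparisons. The 5 genes were those bright enough on average, and with 5 genes the counts describe these genes alone. Cacng2 passed the brightness filter through its L3-S and L3-B signals. Without the filter its call against L3-B held and its call against L3-S was lost, which left 1 of 9 members called in L6-R against L3-S.

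In L3-S against L3-B, 0 of the 5 were called, where 1.02% of tested genes were called (84 higher and 9 lower), and 0 had an unadjusted p under 0.05. Cacng5 differed by 0.05 ± 0.29 log2 (95% interval -0.62 to 0.71), Gria4 by 0.11 ± 0.24, Gria2 by -0.07 ± 0.22 and Gria3 by 0.03 ± 0.30. The Cacng5 interval does not reach the size of either L6-R difference. With its leading probe set Gria3 moved in opposite directions in the size classes, by -0.36 in the big pair and 0.41 in the medium to small pair. Its other probe set was lower in L3-S in both pairs (57.6 against 71.2, and 61.0 against 67.4).

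**Figure D3:**
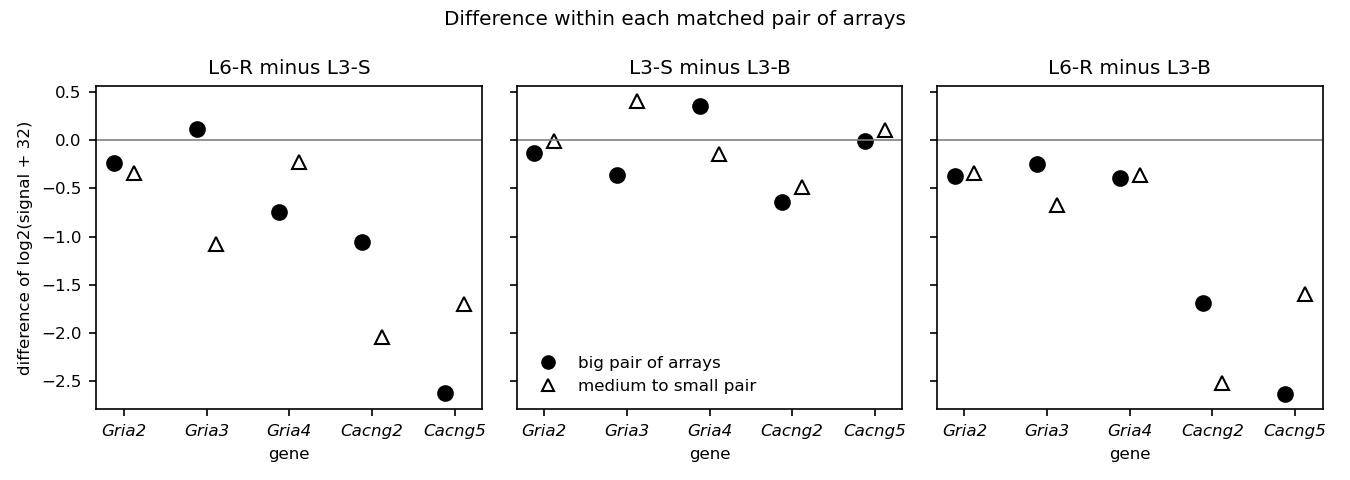
Difference of log2(signal + 32) (vertical axis) within the big pair (filled circles) and the medium to small pair (open triangles) of arrays for each tested gene and each comparison of codes. Cacng5 and Cacng2 are at -1.05 or lower in every pair that holds L6-R, with the larger Cacng5 difference in the big pair and the larger Cacng2 difference in the medium to small pair.

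Between size classes, 0 of the 5 genes and 0% of all tested genes were called by limma, with 320 of 9097 genes at an unadjusted p under 0.05. Cacng5 was lower in the big pool of every code, at 53.6 against 194 in L6-R, 499 against 705 in L3-S, and 502 against 654 in L3-B (big, then medium to small). Its difference was -0.75 ± 0.24 log2 (unadjusted p = 0.0131, adjusted p = 0.998), and the gap was -1.40 in L6-R, -0.47 in L3-S and -0.36 in L3-B. The other tested genes differed by 0.02 (Gria4), -0.06 (Cacng2), -0.07 (Gria2) and -0.07 (Gria3), each with an SE of 0.18 to 0.25. Whether size effects differ between codes could not be tested with 1 array for each combination.

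Several markers of sensory neuron types also differed between codes. Of 5 markers of large myelinated-fibre neurons 4 were measured here, with summed signals of 10507 and 8671 in L6-R, 13938 and 16869 in L3-S, and 17936 and 13824 in L3-B. Nefh made up most of each sum, and its groups overlapped. It read 9581 and 7766 in L6-R, 8744 and 10408 in L3-S, and 12609 and 9055 in L3-B. Of the 4 markers, 2 were called in L6-R against L3-S, 3 in L6-R against L3-B and 1 in L3-S against L3-B. The list medians were -1.65, -2.24 and -0.09 log2, and the shares of all tested genes called were 3.18%, 7.51% and 1.02%. Pvalb was lowest in L6-R (69.1 and 31.9) and higher in L3-S (2083.5 and 3413) than in L3-B (723 and 756). Pvalb passed the brightness filter through its L3-S and L3-B signals. Ntrk3 was also lowest in L6-R (505 and 448) but lower in L3-S (1155.5 and 791) than in L3-B (2243 and 2087). Vsnl1, a calcium sensor, read 352 and 426 in L6-R, 1956 and 2256 in L3-S, and 2360 and 1925 in L3-B. Of 5 small-diameter neuron markers 2 were measured, with summed signals of 1106 and 679 in L6-R, 213 and 292 in L3-S, and 140 and 102 in L3-B. Of these, Trpv1, the capsaicin receptor, read 616 and 392 in L6-R, 108 and 56.1 in L3-S, and 18.7 and 19.6 in L3-B. It passed the brightness filter through its L6-R and L3-S signals.

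Markers of other cells were present too. The summed signal of 4 satellite glia markers was 4792 and 8675 in L6-R, 5305 and 6685 in L3-S, and 2506 and 3185 in L3-B, and that of 5 Schwann cell markers was 10537 and 12586 in L6-R, 8611 and 10787 in L3-S, and 10374 and 8799 in L3-B. In L6-R against L3-B 2 of the satellite glia and 3 of the Schwann cell markers were called, with list medians of 1.04 and 1.56 log2. S100b, the brightest Schwann cell marker, was lower in L6-R (5114 and 4918) than in L3-B (6832 and 5546). The other Schwann cell markers were higher in L6-R in both size classes. Mal (65.9 and 37.7) and Sox10 (38.7 and 7.4) were dim in L3-B. Mal passed the brightness filter through its L6-R signals, and Sox10 through its L6-R and L3-S signals. Against L3-S none of the satellite glia or Schwann cell markers was called. The shares of all tested genes called were 7.51% and 3.18% in these comparisons. For 6 connective tissue and vessel markers the sum was 808 and 1448 in L6-R, 1212 and 1300 in L3-S, and 295 and 198 in L3-B. Col1a1 and Pecam1 were under 32 on every array. Both tested markers of this list were called in L6-R against L3-B, with a median of 1.93 log2. In L3-S against L3-B, where 1.02% of all tested genes were called, 1 of them was called, as was 1 satellite glia marker. For 5 blood and immune markers the sum was 101 and 169 in L6-R, 106 and 118 in L3-S, and 92 and 93 in L3-B, with Hba-a1, Ptprc and Cd68 under 32 on every array. The part of these markers, and of the Actb ratio, in the Cacng2 and Cacng5 differences was not tested. None of the 8 neuron markers was called in any comparison. Their list medians were 0.35 log2 in L6-R against L3-S, 0.40 in L6-R against L3-B and 0.04 in L3-S against L3-B. With 8 markers, and 7.51% or less of all tested genes called, this does not show equal neuron content.

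Genes whose products work with AMPA receptors were read from lists chosen with earlier results of these data known. Neuronal pentraxins are secreted proteins that gather AMPA receptors at synapses, and 2 of them moved in opposite directions in L6-R. Nptx2 read 254 and 476 in L6-R, 120 and 188 in L3-S, and 33.7 and 16.6 in L3-B, in the same order in both size classes. It rose in L6-R against L3-B (2.76 ± 0.31 log2, adjusted p = 0.00157) and passed in all 16 alternative settings that tested it. Its L3-B signals were at or under the background, so the size of this rise is not resolved, and it ran from 1.58 to 3.82 over those settings. Nptx2 passed the brightness filter through its L6-R and L3-S signals. In L3-S against L3-B it differed by 1.69 ± 0.31 (adjusted p = 0.0505), which did not pass, and it passed in 7 of 16 alternative settings and not in the other 9 (adjusted p 0.00536 to 0.357). Its other probe set was dim (4.5 to 36.9) and differed by 0.41 in L6-R against L3-B.

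Nptx1 read 1222 and 1113 in L6-R, 2246 and 2219 in L3-S, and 3307 and 3703 in L3-B, without overlap. In L6-R it fell by 1.56 ± 0.22 log2 against L3-B (adjusted p = 0.00435), and its other probe set gave -1.88. Against L3-S it differed by -0.92 ± 0.22 (adjusted p = 0.0721), which did not pass. It passed in 7 of 17 alternative settings and not in the other 10 (adjusted p 0.0233 to 0.541).

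Of 12 auxiliary and assembly proteins of the receptor, 4 were bright enough to be tested. In L6-R against L3-B, where 7.51% of all tested genes were called, 0 rose, 1 fell and 3 did not pass, with a median of -0.68 log2. Frrs1l, which helps to assemble AMPA receptors in the endoplasmic reticulum, read 954 and 773 in L6-R, 1158 and 1088 in L3-S, and 1562 and 1777 in L3-B. It fell by 0.93 ± 0.23 log2 (adjusted p = 0.0468), a call that 8 of 17 alternative settings lost, among them leaving out the L3-B medium to small array (-0.75, adjusted p = 0.137), the L6-R big array (-1.10, adjusted p = 0.18) or the L6-R medium to small array (-0.76, adjusted p = 0.433). The mean of the Frrs1l probe sets was another setting that lost it (-0.76, adjusted p = 0.153). The other Frrs1l probe set read 353.5 and 328 in L6-R, 513 and 249 in L3-S, and 400 and 704 in L3-B. Its L6-R minus L3-B difference was -0.60. In the same comparison Abhd6, a lipase that restrains AMPA receptor surface delivery, stood at -0.79 (adjusted p = 0.0937), Porcn at -0.57 and Cpt1c at 0.16. The further TARP Cacng8 (2.7 to 28.8) and the auxiliary proteins Cnih3, Shisa6 and Shisa9 had no signal above 32.

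Of 15 scaffold, trafficking and clustering genes, 11 were tested. In L6-R against L3-B 1 rose, 1 fell (the pentraxins) and 9 did not pass, with a median of -0.44. In L6-R against L3-S 0 were called, with a median of -0.24. The shares of all tested genes called were 7.51% and 3.18% in these comparisons. The brightest of those that did not pass were Nsf, whose product binds the tail of the Gria2 subunit, at -0.48 (adjusted p = 0.269) in L6-R against L3-B, Epb41l1, which links receptors to actin, at -0.44, and Gripap1, a protein of recycling endosomes, at -0.43. The tested genes for RNA editing enzymes were Adar, at -0.43, and Adarb1, whose product edits the Gria2 transcript, at 0.69, and neither passed. None of these lists had a called member in L3-S against L3-B or between size classes, where 1.02% and 0% of all tested genes were called. Cacng1 and Cacng6, which are not known as AMPA receptor regulators, were under 32 on every array.

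**Figure D4:**
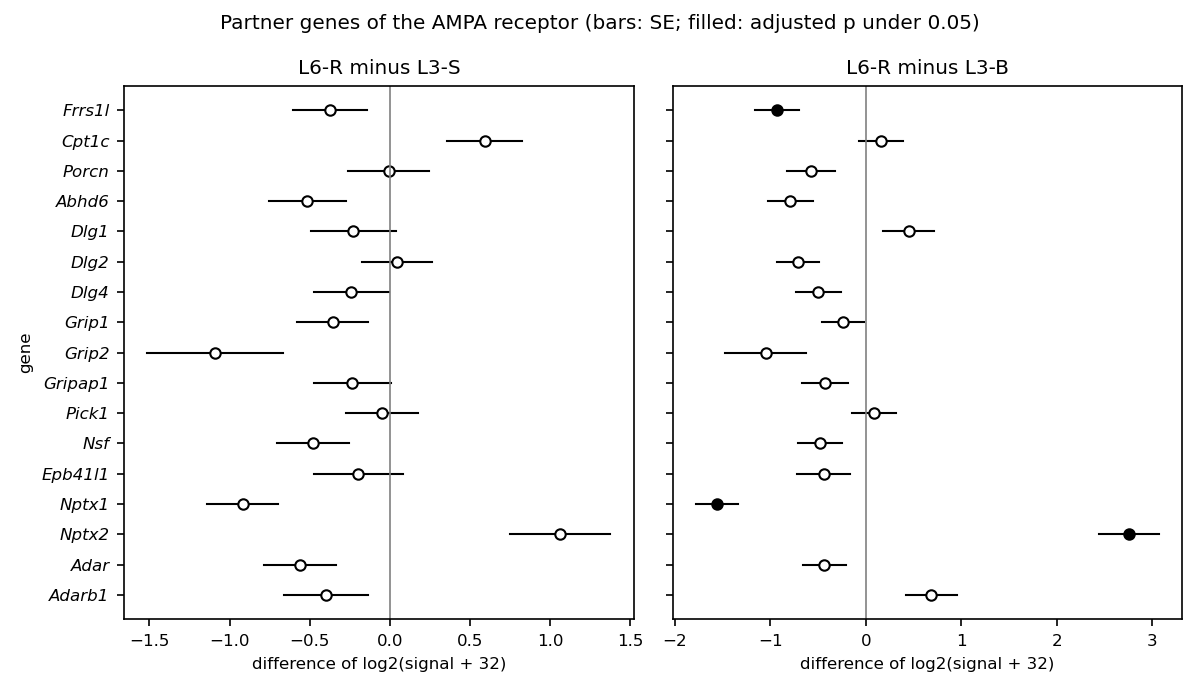
Difference of log2(signal + 32) (horizontal axis, with SE bars) of the tested partner genes in L6-R against L3-S (left panel) and L6-R against L3-B (right panel); filled points passed the threshold. Nptx2 (2.76, a size not resolved because its L3-B signals are at the background) stands to the right of the others against L3-B, and Nptx1 (-1.56) and Frrs1l (-0.93) are the filled points to the left.

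The genes whose pattern was most like Cacng5 over the 6 arrays, by Pearson correlation among 2445 tested genes with a range of at least 1 log2, were Caly (0.996), Ypel5 (0.990), Slc25a29 (0.983), Spsb4 (0.981) and Lsm3 (0.980). Caly, which encodes a vesicle protein of neurons, read 35.5 and 69.5 in L6-R, 126 and 138 in L3-S, and 114 and 129 in L3-B. For Cacng2 they were Lypd6 (0.995), Chordc1 (0.992), Tafa1 (0.991), Tmem59l (0.991) and Erich3 (0.991). Tafa1, which encodes a secreted chemokine-like protein, read 268 and 215 in L6-R, 674 and 797 in L3-S, and 1155 and 1342 in L3-B, the same order of codes as the leading probe set of Cacng2. Among the tested AMPA receptor genes the correlation with Cacng2 was 0.954 for Gria2, 0.819 for Cacng5, 0.767 for Gria3 and 0.671 for Gria4. These values rest on 6 arrays that share their codes, and they describe likeness only.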

How the data were processed

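The authors' deposited table gives linear signal intensity for 45037 probe sets and 64 control probe sets on 6 arrays. All arrays had a mean of 150 after trimming 2% at each end, so values were not normalized again; the sources used here do not give the summary and scaling steps. RNA was purified with a PicoPure kit, per the labels. Symbols came from the platform annotation. A gene (18193 in all) was read from its brightest probe set by mean log2(signal + 32), called leading, and the upper 50% of genes by that mean (9097 genes, minimum 6.41) were tested. R 4.3.3 with limma 3.58.1 fitted title code and size class additively (lmFit, eBayes, two-sided, 2 residual and 6.46 prior degrees of freedom), with Benjamini-Hochberg adjustment over all tested genes. The fit was also run on simulated data with independent noise on each array, which cannot check how real pools vary. P-values rest on the spread among these 6 pools alone, which may be technical, and the number of arrays limits precision. The genes and lists were chosen with earlier results of these data known; all 9 members were named. Of the partner lists, called genes and the brightest 3 others were named by rule, and dim ones were picked after seeing their values. The 5 genes most correlated with a called member were named. Alternatives changed, in 17 settings, the pseudocount, normalization, filter, probe sets, model or arrays used.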

Additional observations from a re-analysis of the deposited data

Results flagged for a closer look

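In tested genes, differences of at least 0.2 log2 in opposite directions between size classes or codes were listed; with 1 array for each combination, none of these was tested, and the arrays involved are single pools. With its leading probe set, Gria3 moved by -0.36 in the big pair and by 0.41 in the medium to small pair of L3-S against L3-B. Its other probe set was lower in L3-S in both pairs. With the leading probe set its big minus medium to small difference was 0.47 in L6-R, -0.73 in L3-S and 0.045 in L3-B. The L3-S value rested on the highest Gria3 signal of the series (124). Cacng2 had a big minus medium to small difference of 0.55 in L6-R, where its signals were nearest to the background, of -0.44 in L3-S and of -0.28 in L3-B.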

How the results depend on the processing

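Over the tested members and comparisons, 318 values were recomputed: 285 kept their direction and their side of the threshold, 9 lost a call, 0 gained one and 24 changed sign. Every lost call was one of Cacng2 against L3-S (6), Cacng5 against L3-S (2) or Cacng5 against L3-B (1). Cacng2 against L3-B kept its call in all 16 settings that tested it (-2.72 to -1.32, highest adjusted p 0.0417). The 2 members called in L6-R against L3-S became 1 with a pseudocount of 1, with no filter and among the upper 25% of genes (where 2 members were tested), and 0 with the mean of probe sets or with every probe set tested; leaving out 1 array gave 1 to 2. The 2 called in L6-R against L3-B became 1 among the upper 25% and 1 with the mean of probe sets. The cause was not tested beyond the fewer members or more features tested. The 24 that changed sign lay in 7 results that passed in neither setting. By size, Cacng2 was 0.029 with a pseudocount of 1, 0.052 with the mean of probe sets and 0.18 with array weights (-0.36 to 0.13 when 1 array was left out). Gria3 was 0.12 with array weights (-0.34 to 0.26 on leaving 1 out), and Gria4 -0.030 (-0.14 to 0.12). In L3-S against L3-B, Cacng5 was -0.016 with the mean of probe sets (-0.24 to 0.34 on leaving 1 out), Gria4 -0.11 (-0.15 to 0.36) and Gria3 -0.062, or -0.064 with quantile normalization (-0.47 to 0.52). In L6-R against L3-S, Gria3 ran from -0.97 to 0.012 on leaving 1 out. Of the partner genes, only size differences of Nptx1 (0.058 with array weights, -0.072 to 0.074 on leaving 1 out) and Frrs1l (-0.048 to 0.19 on leaving 1 out) changed sign, among Nptx1, Nptx2 and Frrs1l.

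Counts over all genes moved more. For L6-R against L3-S the 289 calls became 137 (pseudocount 1), 107 (no filter), 115 (upper 25%), 49 (every probe set), 633 (array weights) and 653 (only those codes), with 140 to 653 when 1 array was left out. For L3-S against L3-B the 93 became 46, 14, 21, 5, 48 and 171 in the same settings and 41 with the mean of probe sets, with 61 to 202 when 1 array was left out. For L6-R against L3-B the 683 became 299 (upper 25%) and 316 (every probe set), with 356 to 995 when 1 array was left out. For size the 0 became 1 when an L3-S or L6-R array was left out. No replicate block applies, since the size class already pairs the arrays. Signals near 32 limit Gria1, Cacng3, Cacng4 and Cacng7.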

Other observations

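Other partner genes, too dim to be tested, varied between codes near the background. Arc, an immediate early gene whose product promotes the internalisation of AMPA receptors, read 2.1 and 5.9 in L6-R (big, then medium to small), 54.6 and 5.9 in L3-S, and 82.4 and 53.5 in L3-B. Gsg1l, an AMPA receptor auxiliary subunit, read 20.6 and 2.3 in L6-R, 44.0 and 60.5 in L3-S, and 1.1 and 2.1 in L3-B, above 32 in the L3-S arrays only among these 6. Cnih2, another auxiliary subunit, was above 32 on every array, at 51.9 and 44.6 in L6-R, 38.4 and 39.2 in L3-S, and 72.2 and 48.2 in L3-B. The L6-R and L3-S values of Arc met at 5.9, and 3 of the 4 Gsg1l values in L6-R and L3-B were under 3. They were picked after seeing these values, and no test was made.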
